A study of Mus musculus with 16 samples.

Results

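The comparison described here is that of the cortex of 19-month-old with that of 3-month-old wild-type mice, 4 mice of each age, which make up 8 of the 16 libraries of the study. All 8 were chosen by the genotype and age in their labels, and genes were tested where at least 2 of the 4 mice of one age had 10 or more counts, which left 16101 of 39179 gene identifiers. The study sequenced RNA of wild-type mice and of mice homozygous for a V338Y exchange in *Mrps5*, which lies in the small subunit of mitochondrial ribosomes, at both ages, and asked how errors of mitochondrial translation alter the ageing brain. Per the study the mice were of strain C57/BL6 and female and the tissue was cortex, and the labels give the tissue as brain. The titles of the 19-month libraries end in N, which the labels do not explain, and those of the 3-month libraries do not, so what the letter stands for cannot be told apart from age. The wild-type mice carried no allele or treatment beyond their strain, and they enter here as 3-month-old mice 9, 10, 11 and 12 and 19-month-old mice 12, 13, 14 and 15. The number 12 occurs at both ages and stands for different animals. Values of single mice are given below in that order, as normalised read counts, which are counts scaled to a library of 10775045 reads after correction for composition, and fold changes are on the log2 scale with their standard error, 19 against 3 months. Adjusted p-values are from the quasi-likelihood test of edgeR with Benjamini-Hochberg adjustment over all 16101 genes. Levels of different genes are not corrected for gene length and are not compared with each other.

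The cortex holds excitatory neurons and inhibitory interneurons, astrocytes that surround synapses and vessels, oligodendrocytes that form myelin and arise from dividing precursors, microglia, which are its resident macrophages, and the cells of vessels and meninges. In the ageing rodent brain, astrocytes and microglia are known to take up reactive states, in which genes of complement, antigen presentation and the interferon response are expressed more. In RNA of whole tissue, fewer cells of a type cannot be told apart from less RNA per cell.

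The libraries held 7963530 to 14795474 counts at 3 months and 6181448 to 12658661 at 19 months. The first principal component held 76.7% of the variance and separated the ages, with scores from -47.3 to -44.3 in young and from 42.1 to 46.9 in old mice. RNA from the sex chromosomes did not match the statement that all mice were female. In the young mice 4 Y-linked genes together had 2019 to 4029 counts and the X inactivation transcript had 5 to 13, whereas in the old mice the Y-linked genes had 0 counts, which allows up to 3, and the transcript had 6331 to 14290. Age and sex therefore cannot be told apart in any value below, and genes of these chromosomes are not described. Transcripts that mark some other tissues also differed between the ages. The 11 cerebellar markers tested were all lower at 19 months, against a share of 31.5% lower over all genes tested. Their summed level was 8442 in young mouse 9, between 12024 and 14161 in the other young mice and between 1526 and 1699 in the old mice. The 4 olfactory bulb genes tested were also all lower (median -1.54), with a summed level of 587 to 765 in young and 219 to 262 in old mice. The summed level of 7 pituitary genes, of which 4 were tested, was 13.2 to 29.4 in young and 823 to 1252 in old mice. That of 6 blood genes, of which 5 were tested, was 1328 to 2372 against 4584 to 9449.6. The labels describe an RNA extraction from muscle. The 12 muscle markers, of which 6 were tested, were low at both ages, with a summed level of 88.2 to 127 against 119 to 127. Choroid plexus markers overlapped, at 9069 to 12936 and 8002 to 20604, and so did those of the striatum, at 7968 to 9196 and 7814 to 8928. Whether these transcripts came from such tissues, and the part of such tissues in the results below, was not tested.

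**Figure D1:**
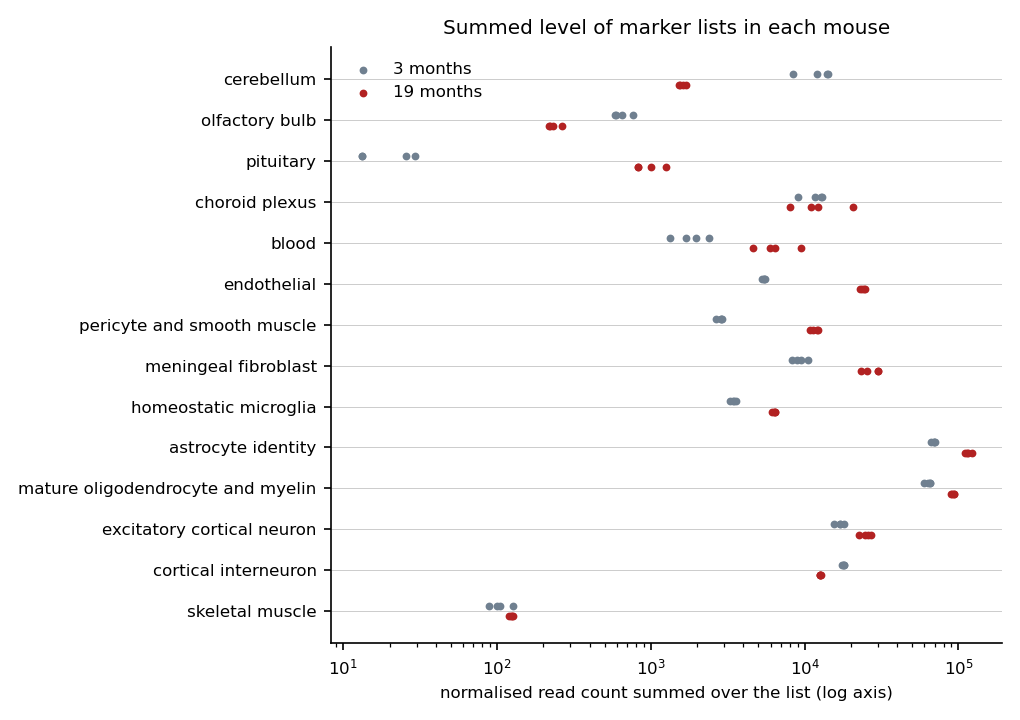
Summed normalised read count of 14 marker lists in each wild-type mouse, on a log axis, with 4 grey points for 3 months and 4 red points for 19 months per list. The cerebellum list is lower in all old mice, the pituitary, blood and vessel lists are higher in all old mice, and the choroid plexus points of the ages overlap.

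Expression differed between the ages for 10115 of the 16101 genes tested (62.8%). Of these, 5050 were higher at 19 months (31.4% of genes tested) and 5065 were lower (31.5%). Normalised counts did not overlap between the ages for 4441 genes that were higher (27.6%) and 4452 that were lower (27.7%). Without the correction for composition the split was 4175 higher and 6321 lower, and the median of all genes shifted from -0.00496 to -0.10 on the log2 scale, so directions are relative to the bulk of the transcriptome. The large changes were mostly rises. Among 15260 autosomal genes tested, 1472 of the called genes were at least 2-fold higher and 275 at least 2-fold lower, and 352 were at least 4-fold higher and 78 at least 4-fold lower. Long intergenic RNAs were higher for 71 and lower for 40 of 250 tested. Both shares were under those over all genes (31.4% and 31.5%). The direction varied with transcript length. Among the 2783 protein-coding genes with the shortest exonic length 610 were higher and 1185 lower (median -0.18), and among the 2782 with the longest 1336 were higher and 571 lower (median 0.13).

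Of the autosomal protein-coding genes with at least 50 normalised counts in the higher group and no overlap, the 10 largest rises were those of *Prl*, *Alb*, *H2-Q7*, *Itgax*, *H2-Q6*, *Tgtp2*, *Tgtp1*, *C3*, *Gbp4* and *Gh*. *Prl* and *Gh* encode pituitary hormones, and *Alb* encodes serum albumin. *Prl* had 2 counts in all young mice and 2750 in the old mice, a ratio of 1612 after scaling (95% counting interval 446 to 13319). *Alb* had 3 and 524 counts, a ratio of 205 (69.7 to 996). *Gh* had normalised counts of 0, 0, 0 and 11.9 in the young and 52.0, 52.5, 51.4 and 63.8 in the old mice (4.11 ± 0.69, adjusted p 0.00101). The 10 largest falls were those of *Gabra6*, *Pcp2*, *Cbln3*, *Crtam*, *Cnpy1*, *Ppp1r17*, *Fat2*, *Slc6a5*, *Dao* and *Mybpc3*, among which *Cbln3*, *Fat2* and *Ppp1r17* are also known from cerebellar neurons. *Gabra6*, a GABA receptor subunit of cerebellar granule cells, had 641, 1134, 1017 and 1240.3 normalised counts in the young mice and 0.866, 0.891, 0 and 1.82 in the old mice. Its 4514 counts in the young and 3 in the old mice gave a ratio of 1283 (439 to 6225). *Pcp2*, a gene of Purkinje cells, had 2155 and 5 counts, a ratio of 368 (157 to 1133). Among these 10 genes the lowest of the young mice was mouse 9 for all but *Slc6a5*, the glycine transporter of hindbrain and spinal inhibitory neurons (-5.12 ± 0.26, adjusted p 2.08e-13), for which it was mouse 12 (170.1, 167, 225 and 135 against 3.46, 8.91, 2.34 and 3.65). Mouse 9 was also the young mouse with the lowest cerebellar sum.

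**Figure D2:**
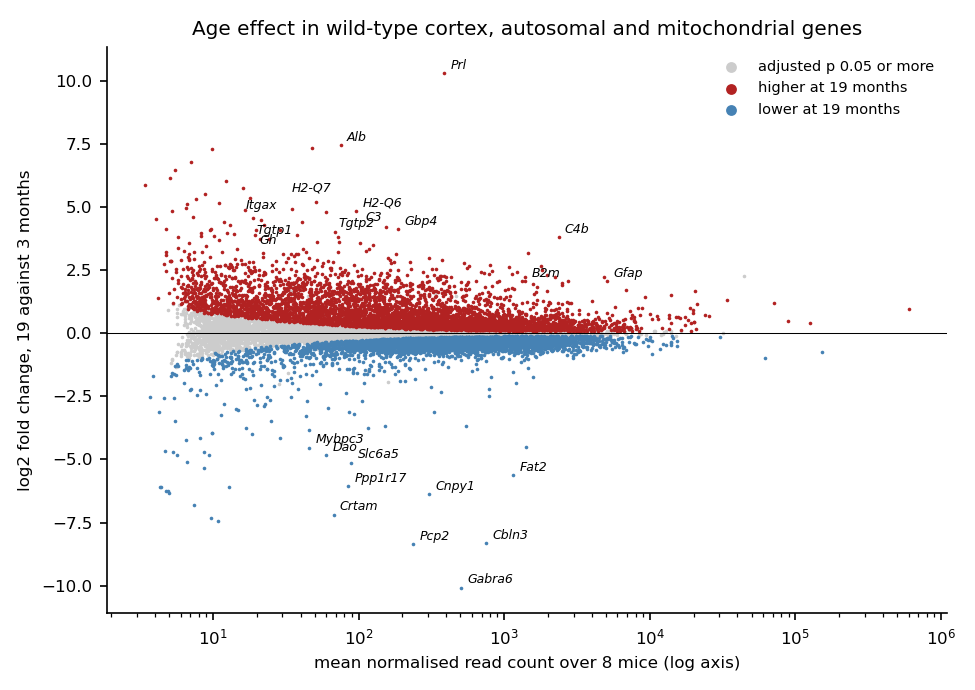
Log2 fold change of 19 against 3 months for each autosomal or mitochondrial gene tested, against its mean normalised read count over the 8 wild-type mice on a log axis. Red points are called higher and blue points lower at 19 months. Large changes above the zero line are spread over all levels, with *C4b* at 3.81 and *Gfap* at 2.09, while the labelled falls from *Mybpc3* to *Gabra6* stand apart.

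Genes of MHC class I presentation were higher at 19 months for 19 of 21 tested and lower for none, with a median of 1.74 against -0.00496 over all genes. Of all genes tested 31.4% were higher and 31.5% lower. *B2m*, the light chain that all class I molecules need, had 509, 568, 491 and 553 in the young mice and 2339, 2143, 2258 and 2284 in the old mice (2.08 ± 0.05, adjusted p 7.43e-25). The difference between the ages was many times the spread within either age. *H2-Q7* and *H2-Q6* are near-identical class I heavy chain genes between which reads can be split. *H2-Q7* had 1.32, 1.41, 2.84 and 4.59 in the young and 82.3, 104, 104 and 109 in the old mice (5.21 ± 0.27, adjusted p 6.77e-17), and *H2-Q6* had 7.91, 6.36, 3.79 and 7.34 in the young and 171, 181, 197 and 199 in the old mice (4.86 ± 0.18, adjusted p 1.87e-20). *Tap1*, a subunit of the transporter that loads peptides, rose from 30.6 ± 5.41 to 182 ± 15.6 (SD, n = 4, 2.55 ± 0.13, adjusted p 1.36e-16). Of genes of MHC class II and T cells 6 of 9 tested were higher and none lower (median 1.76). *H2-Aa*, a class II chain, had 14.5, 17.7, 12.3 and 15.6 at 3 months and 95.3, 89.1, 114 and 89.3 at 19 months (2.66 ± 0.18, adjusted p 5.26e-14), and the invariant chain *Cd74* had 38.2, 43.1, 46.5 and 60.6 at 3 months and 201, 257, 262 and 224 at 19 months (2.31 ± 0.13, adjusted p 5.81e-16). Most T cell genes of the list, such as *Cd3e* and *Cd8a*, were under the count minimum.

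The interferon-stimulated genes rose with few exceptions. Of 41 tested, 39 were higher at 19 months (95.1%, against 31.4% of all genes) and none lower (against 31.5%), with a median of 2.04. *Ifit3* had 56.7, 72.8, 66.4 and 74.4 in the young mice and 179, 233, 228 and 199 in the old mice (1.62 ± 0.11, adjusted p 2.04e-13). The lowest old mouse was above the highest young mouse by more than 2-fold. *Isg15*, a ubiquitin-like modifier, had 7.91, 5.65, 5.69 and 9.18 at 3 months and 29.4, 37.4, 42.0 and 43.7 at 19 months (2.4 ± 0.27, adjusted p 5.98e-09). The largest rises of the list were those of *Zbp1*, a sensor of nucleic acids in cell death, with 4 and 82 counts in all (ratio 24, interval 9.04 to 90.3), and of *Oas2*, an enzyme that activates RNA decay (1.32, 2.12, 0.948 and 3.67 against 39.8, 48.1, 40.9 and 41.9, 4.28 ± 0.33, adjusted p 1.78e-12). *Gbp4*, *Tgtp1* and *Tgtp2*, GTPases that act against intracellular microbes and are not in this list, were among the 10 largest rises named above. *Gbp4* had 22.4, 20.5, 11.4 and 26.6 in the young and 372, 354, 372 and 314 in the old mice (4.13 ± 0.13, adjusted p 7.65e-22). *Tgtp1* (4.44 ± 0.26, adjusted p 1.75e-15) and *Tgtp2* (4.81 ± 0.24, adjusted p 3.56e-17), which are near-identical copies, had at most 5.51 and 4.95 in any young mouse and at least 65.0 and 93.4 in any old mouse.

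Since these genes moved together, their promoters are shown, as read from RefSeq (GRCm38.p6) from 250 bases before to 50 bases after the annotated start. The letters searched for were GAAANNGAAA, the core of the interferon-stimulated response element, on both strands. They occurred in 16 of 35 promoters of 30 interferon-stimulated genes (45.7%), in 5 of 19 promoters of 17 class I genes (26.3%) and in 3.44% of all 32851 promoters in the table. In the following promoters the capitals mark these letters or their reverse complement, with 2 matches for *Ifit3* (chr19:34583279-34583578, plus strand), 3 overlapping matches for *Isg15* (chr4:156200769-156201068, minus strand) and 1 for *B2m* (chr2:122147437-122147736, plus strand), of which the nearest begin 122, 66 and 139 bases before the start. A match describes the sequence and is no evidence that a factor was bound.
Ifit3: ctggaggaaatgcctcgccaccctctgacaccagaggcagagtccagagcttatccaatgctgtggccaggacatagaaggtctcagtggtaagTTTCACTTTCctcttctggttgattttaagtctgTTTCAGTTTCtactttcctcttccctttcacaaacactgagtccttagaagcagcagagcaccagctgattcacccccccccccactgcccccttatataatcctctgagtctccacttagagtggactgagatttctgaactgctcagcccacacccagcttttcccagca
Isg15: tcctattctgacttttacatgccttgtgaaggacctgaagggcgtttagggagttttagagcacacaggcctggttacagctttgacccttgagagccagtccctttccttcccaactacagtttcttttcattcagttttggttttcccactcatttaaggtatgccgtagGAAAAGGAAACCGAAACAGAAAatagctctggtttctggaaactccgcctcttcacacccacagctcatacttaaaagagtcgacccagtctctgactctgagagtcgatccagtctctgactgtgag
B2m: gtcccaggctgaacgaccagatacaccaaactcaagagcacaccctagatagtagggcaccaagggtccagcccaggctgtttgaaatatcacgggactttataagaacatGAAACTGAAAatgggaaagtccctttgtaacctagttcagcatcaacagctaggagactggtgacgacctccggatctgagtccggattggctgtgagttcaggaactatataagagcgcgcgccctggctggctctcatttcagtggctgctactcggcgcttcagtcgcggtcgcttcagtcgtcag

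Complement, the cascade of secreted proteins that tags cells and synapses for removal, was higher for 17 of 19 genes tested and lower for none (median 1.95). The shares over all genes tested were 31.4% higher and 31.5% lower. *C4b* (chr17, about 34728400 to 34743900, minus strand) is a central component that astrocytes and oligodendrocytes also make. It had 318, 302, 371 and 271 in the young and 4425, 4394, 4293 and 4535 in the old mice (3.81 ± 0.06, adjusted p 1.63e-25). *C3*, on which all complement routes converge, had 18.5, 15.5, 9.48 and 19.3 at 3 months and 217, 297, 326 and 339 at 19 months (4.21 ± 0.18, adjusted p 1.23e-13). For both genes the lowest old mouse was more than 10-fold above the highest young mouse.

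Microglial genes were higher without an exception among those tested, against a share of 31.4% higher over all genes. All 11 homeostatic microglial genes rose, with a median of 0.84 and a range from 0.56 to 1.11. *Csf1r*, the receptor that microglia need to survive, had 844, 755, 722 and 747 at 3 months and 1617, 1577, 1735 and 1675 at 19 months (1.11 ± 0.05, adjusted p 6.38e-18), and *P2ry13*, a purine receptor, had 79.1, 68.5, 70.2 and 51.4 at 3 months and 135, 125, 134 and 128 at 19 months (0.97 ± 0.12, adjusted p 6.21e-08). The 19 disease-associated microglial genes tested all rose too, with a higher median of 1.27 and a wider range, from 0.26 to 4.93. *Itgax*, an integrin subunit, had 9 counts in all young mice and 248 in the old mice (ratio 32.3, interval 16.8 to 71.5). *Cst7*, a protease inhibitor, had 0, 2.83, 0.948 and 0 at 3 months and 22.5, 23.2, 32.7 and 21.9 at 19 months (4.30 ± 0.47, adjusted p 2.31e-09), and *Clec7a*, a receptor for fungal glucans, had 1.32, 2.83, 7.59 and 6.43 at 3 months and 72.8, 74.8, 67.7 and 67.4 at 19 months (3.90 ± 0.26, adjusted p 5.24e-14). These 3 genes were under 10 normalised counts in every young mouse, whereas the lipid carrier *Apoe*, which astrocytes also make, was at 12957 ± 964 and rose to 29208 ± 793 (SD, n = 4, 1.17 ± 0.05, adjusted p 1.03e-19). *Lyz2*, the lysozyme of macrophages, had 79.1, 81.3, 92.0 and 100.1 at 3 months and 715, 619, 701 and 585 at 19 months (2.90 ± 0.09, adjusted p 9.92e-23).

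Of 14 genes of astrocyte identity 11 were higher (78.6%) and none lower (median 0.70), against 31.4% and 31.5% of all genes tested. The largest were those of the glutamate transporter *Slc1a2* (1.33 ± 0.05, adjusted p 1.28e-15), with 18389, 18755, 19873 and 20289.8 at 3 months and 42701, 50803, 48382 and 52497 at 19 months, and of the gap junction protein *Gja1* (0.98 ± 0.04, adjusted p 4.62e-19), with 1548, 1480.5, 1551 and 1523 at 3 months and 2946, 3100.4, 3008 and 3006 at 19 months. Reactive astrocyte genes moved further. They were higher for 15 of 16 tested, with a median of 1.98, and the remaining gene was not called. *Gfap* (chr11, about 102887000 to 102901000, minus strand) is an intermediate filament used as a marker of the reactive state. It had 1977, 1894, 1889.6 and 1999 in the young and 8061, 7952, 8636 and 8378 in the old mice (2.09 ± 0.04, adjusted p 5.55e-27). *Serpina3n*, a secreted protease inhibitor, had 138, 134, 149.8 and 119 at 3 months and 934, 911, 936 and 931 at 19 months (2.78 ± 0.07, adjusted p 5.47e-25). *Osmr*, the oncostatin M receptor, had 40.9, 65.0, 52.1 and 58.8 at 3 months and 352, 435, 411 and 390.1 at 19 months (2.83 ± 0.11, adjusted p 3.79e-20). *Tgm1*, a transglutaminase, had no count in any young mouse and 73 in the old mice, a ratio of 28.5 when the young group is set to 3 counts in all, with a lower 95% counting limit of 22.6.

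**Figure D3:**
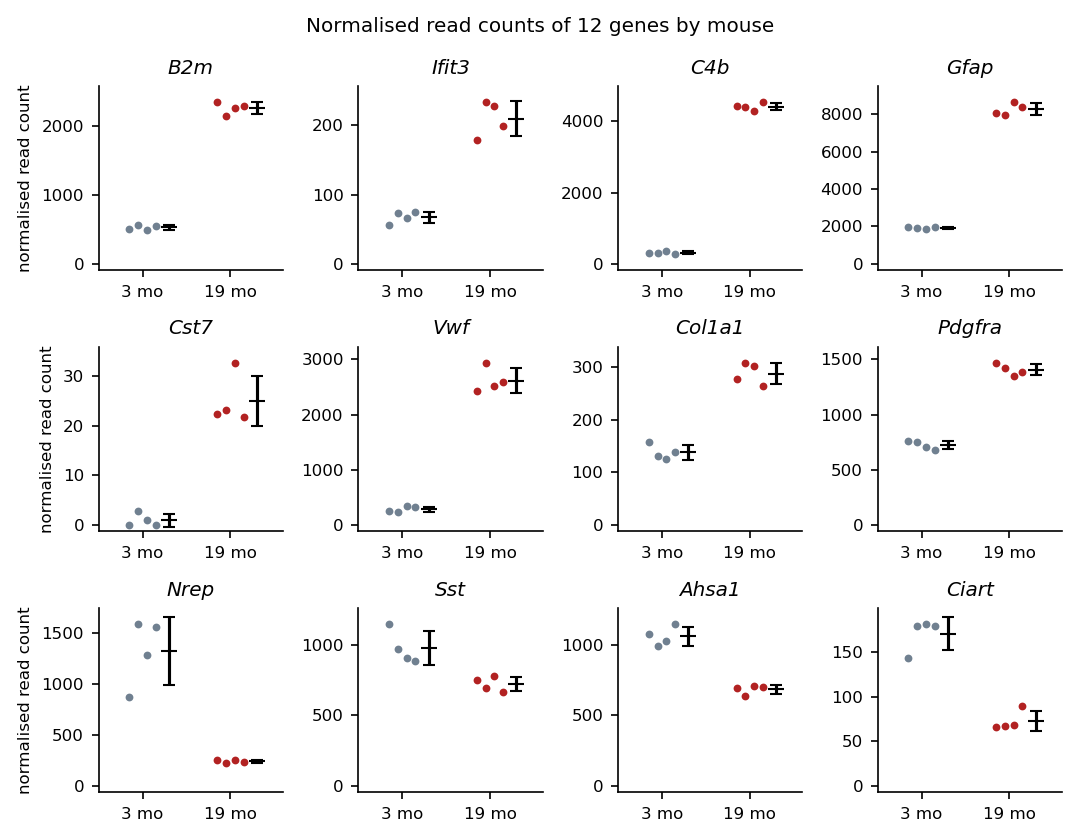
Normalised read counts of 12 genes in each wild-type mouse, 4 grey points at 3 months and 4 red points at 19 months, with black bars for the mean and SD of each age. The ages do not overlap for any of the 12 genes, of which *B2m* to *Pdgfra* are higher and *Nrep* to *Ciart* are lower in the old mice.

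Vessel genes rose uniformly, against a share of 31.4% higher over all genes tested. All 17 endothelial genes tested were higher, with a median of 2.29 and a range from 0.82 to 3.20, and so were all 14 genes of pericytes and smooth muscle (median 2.09, range 1.58 to 2.81). *Vwf*, the clotting factor that endothelial cells store, had 250.5, 236, 335 and 319 in the young and 2423, 2931, 2514 and 2594 in the old mice (3.20 ± 0.11, adjusted p 9.42e-09), and the vascular growth factor receptor *Kdr* had 153, 143, 136 and 194 at 3 months and 908, 1019.8, 1060.1 and 949.7 at 19 months (2.66 ± 0.08, adjusted p 8.51e-19). The smooth muscle genes *Tagln* (2.81 ± 0.20, adjusted p 1.18e-07), with 43.5, 38.2, 46.5 and 40.4 at 3 months and 282, 392, 217 and 266 at 19 months, and *Myh11* (2.58 ± 0.12, adjusted p 2.82e-11), with 102, 96.1, 101 and 92.7 at 3 months and 499, 722, 511 and 594 at 19 months, were also apart by more than 4-fold between the nearest mice. Summed endothelial levels were 5288 to 5506 in young and 22741 to 24659 in old mice. All 17 genes of meningeal fibroblasts rose (median 1.63), among them the transporters *Slc6a13* (2.04 ± 0.19, adjusted p 2.82e-05) and *Slc22a8* (2.0 ± 0.10, adjusted p 5.03e-17). Haemoglobin transcripts of blood cells rose as well, with *Hbb-bs* at 1308, 738, 1183 and 975 in the young and 5694, 2731, 3769 and 3431 in the old mice (1.92 ± 0.30, adjusted p 0.00133). Old mouse 12 had the highest haemoglobin level, and the part of blood in the vessel results was not tested.

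Collagens divided into a majority that rose and a pair that fell. Of 22 tested 15 were higher (68.2%), 2 lower (9.09%) and 5 not called (median 0.85), against 31.4% and 31.5% of all genes tested. *Col1a1* had 158, 131, 125 and 139.6 at 3 months and 278, 308, 302 and 264 at 19 months (1.08 ± 0.09, adjusted p 4.96e-12) and *Col3a1* had 105, 53.7, 57.8 and 74.4 at 3 months and 186, 241, 158 and 151 at 19 months (1.42 ± 0.22, adjusted p 0.000317), both of them fibrillar collagens of fibroblasts, while *Col14a1*, which binds such fibrils, had the next largest rise to *Col3a1* (1.40 ± 0.22, adjusted p 2.12e-06). *Col11a1* fell from 173 ± 20.9 to 104 ± 9.10 (-0.70 ± 0.11, adjusted p 1.5e-06) and *Col20a1* fell from 61.4 ± 8.50 to 36.1 ± 5.84 (SD, n = 4, -0.76 ± 0.17, adjusted p 0.000277).

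In the oligodendrocyte lineage the precursor genes were higher for 6 of 9 tested and lower for 1 (median 0.66). *Pdgfra*, the growth factor receptor that marks precursors, had 758, 751, 708 and 676 at 3 months and 1466, 1421, 1351 and 1391 at 19 months (0.96 ± 0.05, adjusted p 1.42e-16), and the proteoglycan *Cspg4* had 276, 266, 309 and 266 at 3 months and 589.8, 717, 659.6 and 709 at 19 months (1.26 ± 0.07, adjusted p 9.21e-16). *Olig1*, a transcription factor of the lineage, fell by less (-0.21 ± 0.06, adjusted p 0.00313), and this call was lost when trends on GC content and length were removed (-0.0076, sign unchanged). The lists of meningeal fibroblasts (median 1.63) and of pericytes and smooth muscle (median 2.09) rose as well. The part of such cells in the rises of *Pdgfra* and *Cspg4* was not tested. Of 12 genes of newly forming oligodendrocytes 6 were higher (50%) and 2 lower (16.7%), with a median of 0.28, against 31.4% and 31.5% of all genes. *Gpr17*, a receptor that marks that stage, had 447, 372, 394 and 383 at 3 months and 425, 428, 438 and 476 at 19 months and did not pass the test (0.15 ± 0.07, adjusted p 0.0605). *Bmp4*, a growth factor, rose (1.42 ± 0.20, adjusted p 4.36e-07), as did the calcium channel *Itpr2* (1.24 ± 0.06, adjusted p 4.42e-18), while *Tmem163*, a zinc transporter, fell from 351, 371, 312 and 261 at 3 months to 134, 125, 125 and 109 at 19 months (-1.37 ± 0.10, adjusted p 9.27e-12) and the kinase *Fyn* fell from 973 ± 62.3 to 764 ± 39.3 (SD, n = 4, -0.35 ± 0.05, adjusted p 2.12e-06). Myelin genes were higher for 12 of 20 tested and lower for 1 (median 0.24). *Mbp*, a major myelin protein, had 18561, 18558, 18441 and 17223 at 3 months and 30107, 29472, 28872 and 31261 at 19 months (0.72 ± 0.04, adjusted p 1.32e-15). *Myrf*, the transcription factor that drives myelin genes (1.33 ± 0.08, adjusted p 8.38e-14), and *Apod*, a lipid carrier (1.29 ± 0.08, adjusted p 3.81e-07), had the largest rises of the list, and the myelin enzyme *Cnp* fell by a small amount (-0.18 ± 0.04, adjusted p 0.000421).

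**Figure D4:**
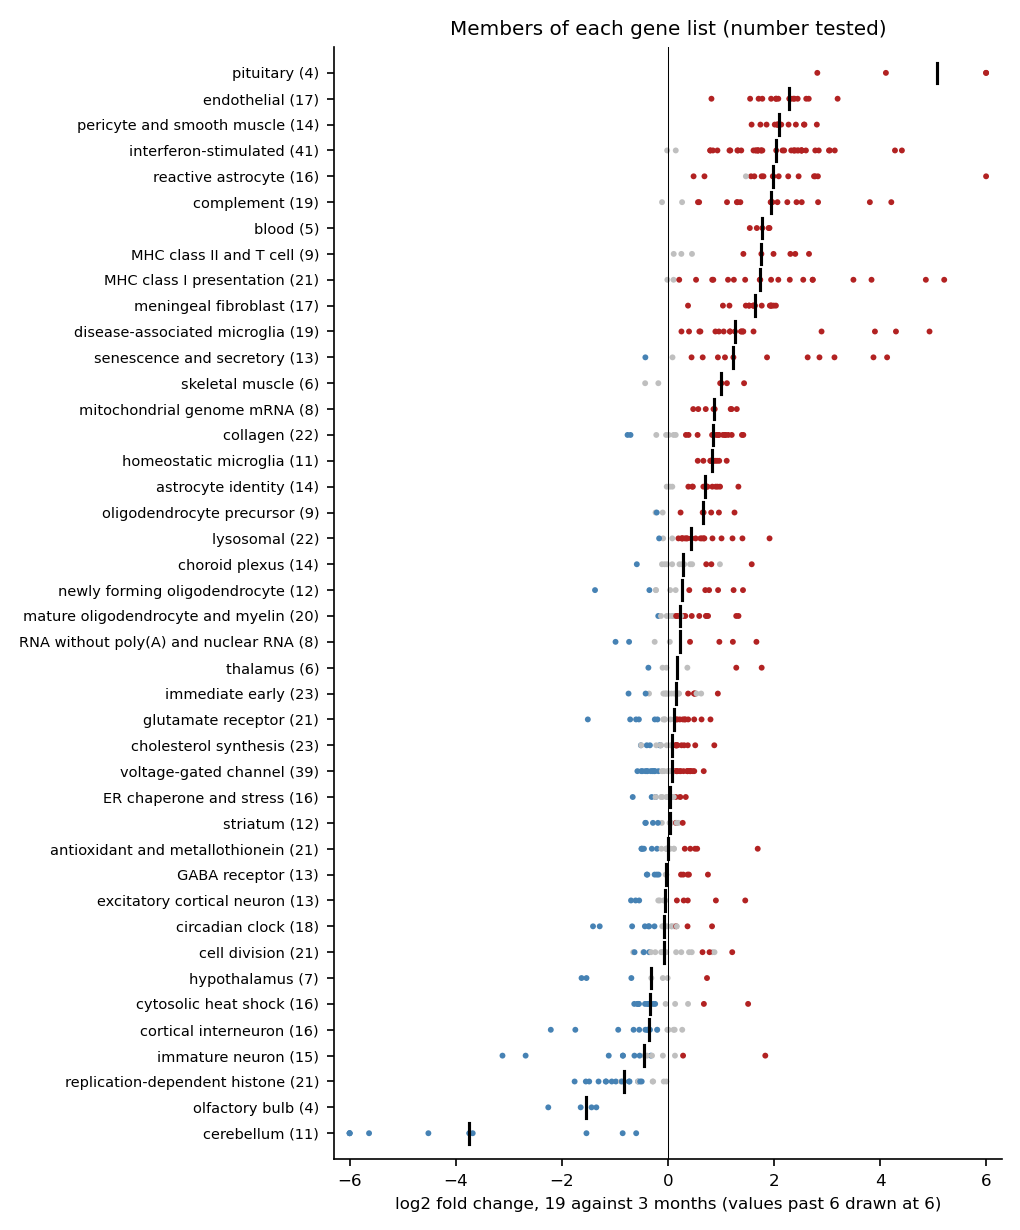
Log2 fold change of 19 against 3 months for each tested member of each gene list in wild-type mice, ordered by the list median (black bar), with the number of genes tested in parentheses. Red points are called higher, blue points lower and grey points neither. Endothelial (median 2.29), pericyte and interferon-stimulated genes lie to the right of 0, neuronal, channel and receptor lists straddle 0, and cerebellar genes lie to the left.

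Genes of immature neurons were lower for 8 and higher for 2 of 15 tested (median -0.44). The largest falls were those of *Neurod1*, a transcription factor of newborn and cerebellar granule neurons, with 419, 684, 576 and 695 in the young and 61.5, 73.9, 66.5 and 78.4 in the old mice (-3.12 ± 0.21, adjusted p 3.93e-06), and of *Eomes*, a factor of intermediate progenitors, with 80.4, 73.5, 78.7 and 75.3 at 3 months and 14.7, 17.8, 2.34 and 9.11 at 19 months (-2.68 ± 0.24, adjusted p 2.38e-10). *Nrep*, a gene of growing neurites, had 871, 1587, 1285 and 1559.8 at 3 months and 257, 224, 253 and 235 at 19 months (-2.46 ± 0.23, adjusted p 9.58e-05). For *Neurod1* and *Nrep* the lowest young mouse was mouse 9, as for the cerebellar sum. *Eomes* is also known from projection neurons of the olfactory bulb, whose markers were lower in the old mice too, and how much of these 3 falls went with cerebellar or olfactory bulb content was not tested. *Nes*, an intermediate filament of progenitors and of vessel cells, rose (1.84 ± 0.09, adjusted p 5.54e-16), as did the tubulin *Tubb2b* (0.29 ± 0.06, adjusted p 0.000135), and *Sox11*, a factor of young neurons, had 112, 62.2, 71.1 and 68.9 at 3 months and 65.0, 59.7, 95.7 and 67.4 at 19 months and was not called (-0.09 ± 0.18, adjusted p 0.667). Over all genes tested 31.4% were higher and 31.5% lower. Cell division genes had 3 higher, 3 lower (14.3% each) and 15 not called of 21 tested (median -0.07). Among them *Mcm3* rose from 24.3 ± 5.17 to 56.8 ± 6.70 (1.21 ± 0.19, adjusted p 1.63e-06) and *Mcm6* fell from 79.8 ± 20.8 to 50.1 ± 5.72 (SD, n = 4, -0.63 ± 0.17, adjusted p 0.00195), both of which are subunits of the helicase of DNA replication.

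Excitatory neuron genes did not move in one direction. Of 13 tested 5 were higher (38.5%) and 3 lower (23.1%), with a median of -0.06, against 31.4% and 31.5% of all genes tested. *Camk2a*, the kinase of excitatory synapses, had 5394, 4744, 5067 and 4722 at 3 months and 11849, 13208, 15073 and 14650.0 at 19 months (1.46 ± 0.08, adjusted p 2.18e-08), and the layer factor *Rorb* had 414, 495, 538 and 502 at 3 months and 843, 922, 898 and 1037 at 19 months (0.91 ± 0.07, adjusted p 3.94e-11). The transcription factors *Neurod2* (-0.69 ± 0.09, adjusted p 6.79e-07) and *Neurod6* (-0.61 ± 0.08, adjusted p 1.27e-07) fell, the former from 502 ± 26.3 to 311 ± 50.9 and the latter from 325 ± 23.7 to 213 ± 19.4 (SD, n = 4). In the interneuron list 10 of 16 genes tested were lower and none was higher (median -0.36). *Calb2*, a calcium buffer, had 1304, 1353, 1287 and 1272 in the young and 320.5, 319, 221 and 246 in the old mice (-2.21 ± 0.08, adjusted p 1.64e-13). *Pvalb*, the buffer of fast-spiking interneurons and also of Purkinje cells, had 1015, 1432, 1294 and 1272 at 3 months and 397, 371, 392 and 332 at 19 months (-1.74 ± 0.10, adjusted p 1.83e-08), with young mouse 9 again the lowest. The peptide *Sst*, which is scarce in the cerebellum, had 1146, 973, 905 and 885 at 3 months and 751, 694, 779 and 665 at 19 months (-0.42 ± 0.07, adjusted p 4.01e-05), and mouse 9 was the highest of the young mice. How much of the fall of *Calb2* and *Pvalb* went with cerebellar or olfactory bulb content was not tested.

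Of 23 immediate early genes, which neurons switch on within minutes of activity, 5 were higher, 2 lower and 16 not called (median 0.15). The shares higher (21.7%) and lower (8.70%) were both under those of all genes tested (31.4% and 31.5%). *Arc*, a synaptic protein of this class, had 1135, 1083, 2269 and 2069 at 3 months and 2372, 2484, 2621 and 2696 at 19 months. The ages did not overlap, yet young mice 9 and 10 were about 2-fold under mice 11 and 12 and the gene did not pass the test (0.63 ± 0.27, adjusted p 0.0895), although it did in DESeq2 (adjusted p 0.0364) and without young mouse 11 (edgeR adjusted p 0.0397). *Npas4*, a transcription factor of the same class, had 80.4, 40.3, 156 and 140.5 at 3 months and 142, 148, 152 and 160.4 at 19 months and was not called (0.54 ± 0.40, adjusted p 0.291). *Btg2*, which restrains cell division, had the largest rise of the list (0.94 ± 0.14, adjusted p 0.000139), and the largest falls were those of *Bdnf*, a growth factor of neurons, with 359.9, 324, 354 and 335 at 3 months and 206, 197, 219 and 193 at 19 months (-0.74 ± 0.08, adjusted p 6.48e-10), and of the secreted peptide precursor *Vgf* (-0.42 ± 0.08, adjusted p 0.000372).

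Each of the receptor and channel lists held genes that rose and genes that fell. Of 21 glutamate receptor genes 10 were higher (47.6%) and 6 lower (28.6%), with a median of 0.12, against 31.4% and 31.5% of all genes tested. *Grm3*, a metabotropic receptor of astrocytes and neurons, had 1088, 1269.9, 1208 and 1202 at 3 months and 2005, 2002, 2097 and 2273 at 19 months (0.80 ± 0.05, adjusted p 1.21e-14), and the NMDA receptor subunit *Grin2b* had 6353, 5684, 6445 and 5925 at 3 months and 8791, 9575, 9583 and 9965 at 19 months (0.64 ± 0.04, adjusted p 3.29e-13). *Grm4* fell (-1.51 ± 0.18, adjusted p 0.000371) and so did the AMPA receptor subunit *Gria4* (-0.71 ± 0.06, adjusted p 1.27e-10), and in both mouse 9 had the lowest value of the young mice. Of 13 GABA receptor genes on the list, which did not include *Gabra6* (-10.1, described above), 5 were higher and 5 lower (38.5% each, median -0.03). These shares were close to those over all genes. Within the list the subunits *Gabrb1* (0.76 ± 0.06, adjusted p 9.6e-13) and *Gabra2* (0.40 ± 0.10, adjusted p 0.00153) were higher and *Gabrd* (-0.40 ± 0.06, adjusted p 4.62e-07) and *Gabra5* (-0.39 ± 0.06, adjusted p 2.44e-06) lower. Voltage-gated channels were higher for 16 (41.0%) and lower for 12 (30.8%) of 39 (median 0.07, or -0.02 without the correction for composition), of which the share lower was that of all genes. The potassium channel *Kcnq3* (0.68 ± 0.05, adjusted p 2.06e-11) and the calcium channel *Cacna1e* (0.50 ± 0.04, adjusted p 1.25e-11) had the largest rises, and the potassium channel genes *Kcnd2* (-0.57 ± 0.05, adjusted p 7.37e-12) and *Kcnab1* (-0.50 ± 0.05, adjusted p 1.21e-10) the largest falls. Mouse 9 was the lowest young mouse for *Gabrd* and *Kcnd2* too, but not for *Gabra5* and *Kcnab1*. How much of the falls of *Grm4*, *Gria4*, *Gabrd* and *Kcnd2* went with cerebellar content was not tested.

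Cytosolic heat shock genes, which code for chaperones, were lower for 11 and higher for 2 of 16 tested (median -0.34). *Ahsa1*, an activator of the chaperone Hsp90, had 1078, 991, 1028 and 1146 at 3 months and 692, 640.4, 708 and 698 at 19 months (-0.63 ± 0.05, adjusted p 1.95e-11), and *Dnaja2*, a partner of Hsp70, had 1994, 1861, 1829.9 and 2033 at 3 months and 1407, 1249, 1281 and 1219 at 19 months (-0.58 ± 0.05, adjusted p 1.57e-11). The 2 that rose were the small chaperone *Hspb1*, with 59.3, 53.7, 52.1 and 79.0 at 3 months and 184, 161, 170.5 and 182 at 19 months (1.51 ± 0.12, adjusted p 4.5e-12), and its partner *Bag3* (0.68 ± 0.14, adjusted p 0.0001), both of them also expressed in astrocytes and smooth muscle. Of 16 genes of the endoplasmic reticulum and its stress response 3 were higher and 3 lower (18.8% each, median 0.04). Of all genes tested, 31.4% were higher and 31.5% lower. The chaperone *Hspa5* had 3481, 3148, 3505 and 4371 at 3 months and 3948, 3812, 3757 and 3852 at 19 months, which overlap (0.08 ± 0.09, adjusted p 0.469), the disulfide isomerases *Pdia4* (0.34 ± 0.07, adjusted p 0.000296) and *Pdia3* (0.23 ± 0.06, adjusted p 0.00306) rose, and the stress factors *Atf4*, with 1492, 1417, 1472 and 1478 at 3 months and 982, 923, 863 and 926 at 19 months (-0.66 ± 0.05, adjusted p 4.46e-13), and *Ddit3* (-0.31 ± 0.10, adjusted p 0.00629) fell. Antioxidant and metallothionein genes were higher for 5 (23.8%) and lower for 6 (28.6%) of 21 (median -0.01), both shares under those of all genes. Extracellular *Sod3* (1.69 ± 0.19, adjusted p 2.36e-08) and the glutathione transferase *Gstm1* (0.55 ± 0.05, adjusted p 4.09e-11) rose, while the mitochondrial peroxiredoxin *Prdx3* (-0.50 ± 0.06, adjusted p 1.55e-08) and the thioredoxin *Txn1* (-0.49 ± 0.07, adjusted p 3.57e-07) fell.

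Lysosomal genes were higher for 19 of 22 tested and lower for 1 (median 0.45). The proteases *Ctsh*, with 92.3, 89.0, 91.0 and 105 at 3 months and 361, 371, 359.6 and 323 at 19 months (1.92 ± 0.09, adjusted p 3.5e-18), and *Ctss*, with 479, 477, 495 and 497 at 3 months and 1319, 1263, 1274 and 1309 at 19 months (1.41 ± 0.05, adjusted p 9.19e-21), had the largest rises, and both are abundant in microglia. The sialidase *Neu1* fell by a small amount (-0.16 ± 0.06, adjusted p 0.0126). Cholesterol synthesis genes were higher for 11 (47.8%, against 31.4% of all genes) and lower for 5 (21.7%, against 31.5%) of 23. Their median was 0.08, or -0.01 without the correction for composition. *Srebf2*, the transcription factor of the pathway, had 932, 873, 933 and 805 at 3 months and 1499, 1737, 1699 and 1546 at 19 months (0.88 ± 0.06, adjusted p 4.9e-14), and *Dhcr7*, a late enzyme of it, rose (0.52 ± 0.09, adjusted p 4.73e-06). The enzymes *Acat2* (-0.51 ± 0.07, adjusted p 6.33e-07) and *Mvd* (-0.40 ± 0.11, adjusted p 0.00291) fell. In a list of senescence and secretory genes 11 of 13 tested were higher and 1 was lower (median 1.24). The macrophage protease *Mmp12* had 4 counts in all young mice and 56 in the old mice (ratio 16.4, interval 6.07 to 62.3), and *Lmnb1*, a lamin, fell from 85.1 ± 8.25 to 63.9 ± 5.12 (SD, n = 4, -0.42 ± 0.13, adjusted p 0.00656).

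Among 18 circadian clock genes tested 7 were lower (38.9%, against 31.5% of all genes) and 3 higher (16.7%, against 31.4%), with a median of -0.07. The output factor *Dbp* had 917, 998, 950.0 and 899.7 in the young and 374, 329.5, 335 and 388 in the old mice (-1.41 ± 0.06, adjusted p 1.11e-18). *Ciart*, a repressor of the clock, had 144, 179, 181 and 179 at 3 months and 65.8, 66.8, 67.7 and 89.3 at 19 months (-1.28 ± 0.12, adjusted p 5.95e-11). The activators *Npas2*, with 254, 202, 209 and 212 at 3 months and 330.0, 364, 426 and 450.2 at 19 months (0.83 ± 0.09, adjusted p 2.42e-08), and *Arntl*, with 447, 387, 355 and 405 at 3 months and 487, 509, 509 and 556 at 19 months (0.37 ± 0.07, adjusted p 2.33e-05), moved the other way. No hour of sampling was given in the sources used here. The activators are known to bind the E-box CACGTG, a palindrome, which occurred in 6 of 21 promoters of 16 clock genes (28.6%). It occurred in 9.37% of the 15034 promoters of genes tested here and in 7.15% of all 32851. The promoter of *Ciart* (chr3:95882179-95882478, minus strand, GRCm38.p6 from RefSeq) held 3, in capitals.
Ciart: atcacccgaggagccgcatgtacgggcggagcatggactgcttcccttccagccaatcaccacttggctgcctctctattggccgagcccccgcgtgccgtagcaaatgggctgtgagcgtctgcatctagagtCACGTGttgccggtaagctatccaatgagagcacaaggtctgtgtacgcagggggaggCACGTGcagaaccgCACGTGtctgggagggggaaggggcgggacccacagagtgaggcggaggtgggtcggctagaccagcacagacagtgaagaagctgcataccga

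Messenger RNAs of the mitochondrial genome were higher for all 8 tested (median 0.87, range 0.48 to 1.30), from 73880.5 to 102944 for *mt-Co1*, a subunit of cytochrome oxidase, and from 1056 to 2613 for *mt-Nd5*, a subunit of complex I. The other 5 messages of that genome had too few counts to be tested, with at most 8 in any wild-type mouse, 0 for *mt-Co2* and 4 for *mt-Co3*. Why these counts were so low was not tested. Replication-dependent histone genes, whose messages have no poly(A) tail, were lower for 15 of 21 tested (71.4%) and higher for none (median -0.83). *Hist1h4b* had 121, 138, 154 and 134 at 3 months and 45.9, 51.7, 40.9 and 49.2 at 19 months (-1.55 ± 0.13, adjusted p 8.12e-12) and *Hist1h3a* had 18.5, 28.3, 21.8 and 27.5 at 3 months and 3.46, 5.34, 8.17 and 16.4 at 19 months (-1.76 ± 0.33, adjusted p 3.34e-05). Of 8 other RNAs without poly(A) or kept in the nucleus 4 were higher (50%) and 2 lower (25%), with a median of 0.23. Over all genes tested 31.4% were higher and 31.5% lower. Together these 8 RNAs held 8.10% to 8.40% of counts in the young and 10.5% to 11.4% in the old mice. The mitochondrial ribosomal RNAs rose, *mt-Rnr1* from 42843 ± 2043 to 100213 ± 16046 (1.23 ± 0.12, adjusted p 8.57e-05) and *mt-Rnr2* from 406306 ± 10016 to 796514 ± 45734 (SD, n = 4, 0.97 ± 0.04, adjusted p 2.31e-18). *Rn7sk*, a regulator of RNA polymerase II, had 187057, 201617, 197971 and 170214 at 3 months and 106968, 123802, 113715 and 111538 at 19 months (-0.73 ± 0.05, adjusted p 8.05e-12) and *Rpph1*, the RNA of ribonuclease P, fell too (-0.99 ± 0.08, adjusted p 3.2e-07). The nuclear RNAs *Neat1*, with 986, 926, 931 and 935 at 3 months and 2939, 2942, 3052 and 3082 at 19 months (1.67 ± 0.04, adjusted p 2.12e-24), and *Malat1* (0.42 ± 0.04, adjusted p 9.43e-10) rose. The methods name a poly(A) kit and a depletion of ribosomal RNA, and whether the libraries of the ages differed in this step was not tested.

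The same comparison in V338Y mice, with 4 other mice of each age, called 8181 of 16770 genes (48.8%). Across 15203 autosomal genes tested in both genotypes the fold changes had a Pearson correlation of 0.900, a description across genes that are not independent, and the V338Y groups differed in the same direction in sex chromosome transcripts, in cerebellar markers (median -3.68 against -3.74 in wild type), in olfactory bulb markers (-1.38 against -1.54) and in pituitary markers. The medians lay further apart for markers of skeletal muscle (3.29 in V338Y against 0.999 in wild type), choroid plexus (1.02 against 0.29) and hypothalamus (0.08 against -0.31), and the part of these tissues in the comparison of the genotypes was not tested. The median of the lists was 1.77 in V338Y against 2.04 in wild-type mice for interferon-stimulated genes, 1.28 against 1.74 for MHC class I, 1.51 against 1.95 for complement, 1.98 against 1.98 for reactive astrocytes and 2.25 against 2.29 for endothelial genes. The age effects themselves differed for 9 of 16831 genes tested (0.0535%), as the interaction in a fit of all 16 mice, while 1723 had an unadjusted p under 0.05. In all 9 the wild-type effect lay above that of V338Y.

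Of these 9 genes, *Gbp4*, *Gbp7*, *Igtp*, *Irgm2* and *Tgtp1* are interferon-inducible GTPases and *Tap1* transports peptides for class I. These roles are background, and of the lists described above 0 of the 41 interferon-stimulated genes and 1 of the 21 MHC class I genes, *Tap1*, were among the 9. On the scale of the 16-mouse fit, *Gbp4* had 25.2 ± 8.02 at 3 and 436 ± 34.7 at 19 months in wild-type mice, and 30.3 ± 4.70 and 129 ± 5.42 in V338Y mice (SD, n = 4). The difference between the effects was 2.02 ± 0.22, adjusted p 5.63e-05. The old V338Y mice reached at most 134, under the lowest old wild-type mouse at 387, and the young groups lay within about 1 SD of each other. *Igtp* had 44.5 ± 14.9 and 352 ± 24.5 in wild-type and 53.3 ± 13.9 and 152 ± 9.73 in V338Y mice (1.5 ± 0.24, adjusted p 0.0136). *Irgm2* (chr11:58199618-58222782) overlaps *Igtp* (chr11:58199556-58207591) on the plus strand, so their reads can be split, and *Irgm2* had a difference of 1.35 ± 0.24, adjusted p 0.0324. *Tgtp1* had 4.30 ± 1.72 and 96.9 ± 11.1 against 8.62 ± 2.20 and 32.8 ± 7.61 (2.52 ± 0.41, adjusted p 0.0136), *Gbp7* a difference of 0.81 ± 0.13, adjusted p 0.0113 and *Tap1* a difference of 1.09 ± 0.19, adjusted p 0.0231. The other 3 were *Naaa*, a lysosomal amidase (0.61 ± 0.10, adjusted p 0.0217), *Fmod*, a collagen-binding proteoglycan (0.87 ± 0.16, adjusted p 0.0324), and *Ptprv*, a phosphatase-like gene (1.18 ± 0.22, adjusted p 0.0324), which was higher at 19 months in wild-type mice (1.07 ± 0.15, adjusted p 4.63e-07) and had -0.13 in V338Y mice. Without young wild-type mouse 10 only *Gbp4* was called, and without young V338Y mouse 14 the count was 57.

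Promoters were in the table for 7 of these 9 genes. The letters TTCNNNGAA, the gamma-activated site at which factors of the interferon-gamma response bind, occurred on either strand in 4 of the 7 and in 8.30% of all promoters, and GAAANNGAAA also occurred in 4. The letters AGGTCA, the core element of ROR receptors, were searched for as well and occurred in 3 of the 7 (42.9%), in 7 of the 19 class I promoters (36.8%) and in 16.3% of all promoters. The promoters of *Gbp7* (chr3:142530086-142530385, plus strand) and *Igtp* (chr11:58199306-58199605, plus strand) are shown from RefSeq (GRCm38.p6) with TTCNNNGAA in capitals, and each also holds 1 match of GAAANNGAAA on either strand, in lower case. These genes were chosen after their values were seen.
Gbp7: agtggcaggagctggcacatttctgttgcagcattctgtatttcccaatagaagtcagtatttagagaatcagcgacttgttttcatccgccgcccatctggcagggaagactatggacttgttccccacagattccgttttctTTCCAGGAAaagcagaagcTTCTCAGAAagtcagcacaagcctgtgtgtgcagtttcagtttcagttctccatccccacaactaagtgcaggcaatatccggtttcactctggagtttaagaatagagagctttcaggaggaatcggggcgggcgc
Igtp: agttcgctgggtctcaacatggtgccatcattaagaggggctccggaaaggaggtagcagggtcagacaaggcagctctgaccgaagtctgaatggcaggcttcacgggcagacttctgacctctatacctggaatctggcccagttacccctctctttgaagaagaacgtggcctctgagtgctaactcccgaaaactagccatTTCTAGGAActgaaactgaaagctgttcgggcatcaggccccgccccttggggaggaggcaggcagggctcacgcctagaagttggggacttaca

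**Figure D5:**
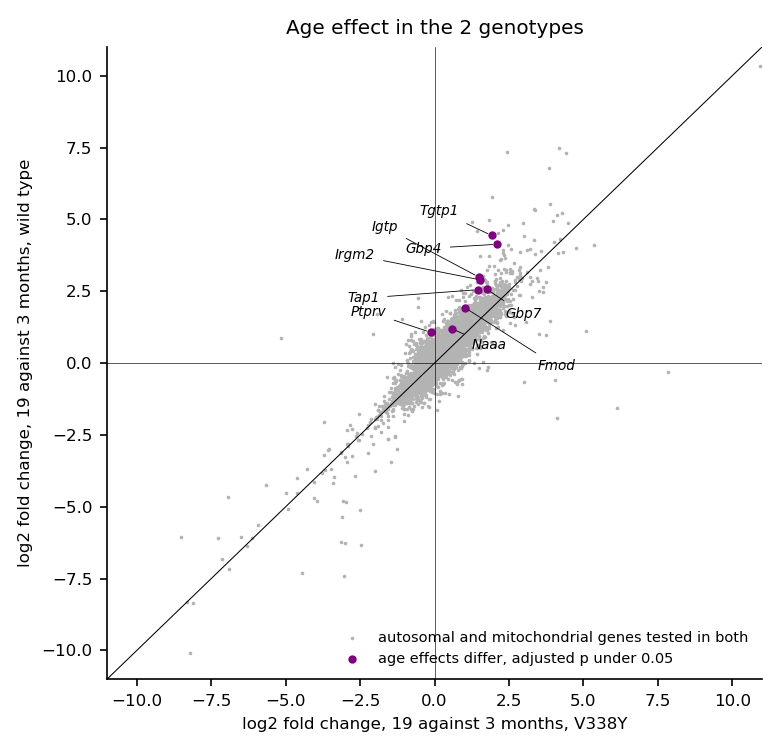
Log2 fold change of 19 against 3 months in wild-type mice (vertical) against that in V338Y mice (horizontal) for each autosomal or mitochondrial gene tested in both, with the line of equal change. The 9 purple genes, whose age effects differed between the genotypes, all lie above the line, led by *Tgtp1* and *Gbp4*.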

How the data were processed

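RNA from the brain, per the study cortex, of 8 wild-type mice was compared, 4 at 3 and 4 at 19 months of age. Single-end reads were aligned and the authors deposited, for each of 39179 Ensembl gene identifiers, expected counts without normalization. The methods name RSEM with Ensembl 75, and the submitters' processing notes name bcl2fastq 1.8.4, STAR 2.4.2a, featureCounts and GRCm38. All 1495 values of 10000 or more were rounded to 4 significant digits. Of the identifiers, 37693 were found in the GENCODE M21 annotation of GRCm38, from which symbols and coordinates were taken.

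Computations were run in R 4.3.3 with edgeR 4.0.16 and limma 3.58.1, and with DESeq2 1.42.0 as an alternative. Genes for which 2 or more mice of an age reached 10 counts were kept, normalised with TMM and tested with the robust quasi-likelihood test at an adjusted p under 0.05. Group membership, genotype, age and mouse number came from the sample labels, which do not say how the animals were bred or housed, so p-values measure the spread between these mice. Total counts of 6181448 to 14795474 limit the precision at low levels, and intervals and lower bounds, at 95% and with 3 counts for a count of 0, cover counting error only. All pairs of mice within an age differed by more than sampling noise (chi-square per degree of freedom 2.18 to 14.6). The fits were tested on simulated counts. The difference between the genotypes was tested as an interaction over 16 mice.

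Named genes were the 10 most increased and 10 most decreased autosomal protein-coding genes, given no overlap and at least 50 normalised counts, the 2 called genes that rose and the 2 that fell most in each list, and a panel. The comparison, lists and panel were chosen with earlier results of these data known. *Isg15* and the genes with differing age effects were named after their values were seen, as were the mitochondrial transcripts beyond that rule. *Prlr*, *Rpph1*, *Rn7sk*, *Malat1* and *Neat1* came from the rule for the lists. Genes of chromosomes X and Y were tested but are not described. Promoter sequences were taken from RefSeq. Alternatives were other size factors, filters and tests, GC content and length trends, a joint fit and the omission of each mouse.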

Additional observations from a re-analysis of the deposited data

Results flagged for a closer look

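In 18 of 360 groups of 4 mice examined, 1 mouse stood far from the other 3, and chance gives about 1 in 20. In normalised counts, young mouse 9 was high for *Apoe* (14395 against 12339 to 12601 in the others) and *Neat1* (986 against 926 to 935) and low for *Ciart* (144 against 179 to 181). Young mouse 12 was high for *Gh* (11.9 against 0), *Prl* (1.84 against 0) and *Tgtp1* (5.51 against at most 2.84) and low for *Mbp* (17223 against at least 18441). Young mouse 11 was low for *Col14a1* (10.4) and for the sum of pericyte and smooth muscle genes (2669), and young mouse 10 was high for the sum of GABA receptor genes (28827). Of the old mice, mouse 14 was high for *Cst7* (32.7), *Itgax* (72.4) and *Mybpc3* (4.67), mouse 15 for *Ciart* (89.3), *Gh* (63.8) and *Malat1* (155195), and mouse 13 was high for *Mcm3* (66.8) and low for *Tgtp1* (65.0).

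The age effect differed between wild-type and V338Y mice, by the edgeR interaction test over 16 mice, for *Gbp4* (wild type minus V338Y 2.02, log2 scale), *Gbp7* (0.81), *Igtp* (1.5), *Tgtp1* (2.52), *Naaa* (0.61), *Tap1* (1.09), *Irgm2* (1.35), *Fmod* (0.87) and *Ptprv* (1.18). Adjusted p-values ran from 5.63e-05 for *Gbp4* to 0.0324 for *Irgm2*, *Fmod* and *Ptprv*. No old V338Y mouse reached the level of any old wild-type mouse for these 9 genes.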

How the results depend on the processing

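The count of 10115 genes called for age stayed within 9078 (at least 10 counts in every sample) and 10580 (no filter on counts) over the planned settings, with 9188 for DESeq2 and 9340 to 9986 when 1 mouse was left out. The count of 9 genes whose age effects differed between the genotypes was 43 in DESeq2, which included all 9, and ranged from 1 (without young wild-type mouse 10) to 57 (without young V338Y mouse 14) when 1 mouse was left out, so that this count rests on single libraries. Without a correction for composition the median of voltage-gated channel genes (-0.0182) and the median of cholesterol synthesis genes (-0.00995) turned negative, as did the median of ER chaperone and stress genes (-0.05), and the median of skeletal muscle genes was -0.16 over the 1 gene left by the filter of 10 counts in every sample. The median of cell division genes was 0.09 without young mouse 11. A list median moved by at least the spread of the list between mice of an age in 55 outcomes of the other settings (278 did not). In 3 more a median beyond that spread changed sign. Without 1 mouse, 33 outcomes moved by that much and 303 did not. A named gene lost its call in 17 outcomes of the other settings (1162 unchanged) and in 15 outcomes without 1 mouse (1195 unchanged). Among these, *Mvd*, *Neu1* and *Olig1* lost their call when trends on GC content and length were removed, *Neu1* also without young mouse 10 or old mouse 14, *Pdia3* without a correction for composition, *Mki67* in the fit of all 16 mice and *Ddit3* without old mouse 13. *Hspa5* was called without young mouse 12, *Gpr17* without young mouse 9 or old mouse 12 and under the stricter filter, and *Arc* in DESeq2, in the likelihood-ratio test and without young mouse 11. The causes were not tested. No paired analysis was possible because the 2 ages share only mouse number 12, which stands for different animals. Depth limits genes under about 10 counts, such as T cell genes, and the confounding of age with sex cannot be resolved by any setting.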

Other observations

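Markers of brain regions that border the cortex did not move together with age. While all 4 olfactory bulb genes were lower at 19 months, of 7 hypothalamic genes 3 were lower and 1 higher (median -0.31), of 12 striatal genes 4 were lower and 2 higher (median 0.04), and of 6 thalamic genes 1 was lower and 2 were higher (median 0.17). Among all genes tested 31.5% were lower and 31.4% higher.

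Choroid plexus genes had 3 higher (21.4%), 1 lower (7.14%) and 10 not called of 14 (median 0.29), both shares under those of all genes. *Ttr*, the thyroxine carrier that is the main product of this tissue, had 5972, 5526, 6185 and 3535 normalised counts in the young mice and 9666, 4305, 4731 and 2089 in the old mice, which overlap. The prolactin receptor *Prlr* had 128, 99.6, 101 and 117 in the young and 477, 305, 298 and 188 in the old mice (1.58 ± 0.30, edgeR adjusted p 0.00333). For both genes mouse 12 was the highest and mouse 15 the lowest of the old mice. Of 6 skeletal muscle genes 4 were higher (66.7%, against 31.4% of all genes) and none lower. All 4 of them were under 20 normalised counts on average at both ages.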
